A study of Mus musculus with 3 samples.

Results

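The ligand genes of cytokine and chemokine signalling were described across 3 cultures of adult mouse sensory ganglion cells that differed in their medium. The set held 38 genes, 16 cytokines or growth factors and 22 chemokines, out of 30142 genes that the array's annotation names by a probe set with 1 symbol. All 38 were measured, each by a single such probe set. Genes were chosen by symbol, though with earlier results of these data known. Each medium has 1 array, so a difference below is a difference between 2 arrays, without a test or an error, and precision is limited by having 3 arrays in all.

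The cells were labelled as primary dorsal root ganglion (DRG) neurons from male ICR mice of 8 to 10 weeks, an outbred strain, and all were kept for 72 hours in DMEM with the B27 supplement. The control culture had nothing further. A second culture received recombinant SEMA3E, a secreted semaphorin that signals through plexin D1, at 1 µg/ml. The culture labelled as high-level blocking received SEMA3E at 1 µg/ml together with SEMA3E-blocking IgG at 1 µg/ml. Whether a culture pooled several animals is not given in the sources used here.

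Cytokines and chemokines are small secreted or membrane-held proteins by which cells call in and instruct other cells. Interleukins of the IL-1, IL-6 and TNF groups act on cytokine receptors that lead to NF-kappaB or to the kinase and transcription factor pairs of the JAK-STAT pathway. Chemokines act on G protein-coupled receptors and guide leukocytes. In sensory ganglia, injured neurons and the glia around them are known sources of several of these ligands, which act on macrophages and can sensitise nociceptors.

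Of 10 sensory neuron markers, 10 lay at or above the background floor defined in the next paragraph, among them Tubb3, a neuronal tubulin, Prph, the intermediate filament peripherin, and Avil, an actin-binding protein of peripheral sensory neurons. Markers of other cells were also measured above it: 4 of 4 for satellite glia, 5 of 5 for Schwann cells, 6 of 7 for fibroblasts, 8 of 16 for macrophages, 4 of 6 for endothelium, 3 of 7 for neutrophils, 1 of 5 for T cells and 1 of 5 for mast cells. The last was Kit, which sensory neurons express too. In such bulk RNA, fewer cells of a type and less RNA per cell cannot be told apart.

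Values are probe set intensities, given in units of the deposited table or as log2(intensity + 1). As a background floor served percentile 95 of the means of 492 Vmn1r and Vmn2r genes, receptors of another sensory organ, which lay at 5.48, or 43.7 units. Of the 38 ligand genes 24 (63.2%) had a mean at or above it, beside 58.6% of all 30142 genes. The 14 below it were Il1a, Il33, Osm, Tnf, Il10, Il15, Csf2, Ccl4, Ccl5, Ccl12, Ccl20, Cxcl1, Cxcl9 and Cx3cl1, and a signal at that level cannot be told from background. Just inside the floor lay Il16 at 5.53, Il1b at 5.62 and Lif at 5.63, and just outside it Tnf at 5.43, Ccl5 at 5.38 and Ccl20 at 5.30. Of the 24 genes, 7 stood less than 1 log2 unit above the floor, 14 stood from 1 to 3 units above it and 3 stood over 3 units above it. The 3 were Csf1, Ccl2 and Il34. Probe sets differ in how strongly they bind, so the order of intensities between genes is not an order of transcript numbers.

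**Figure D1:**
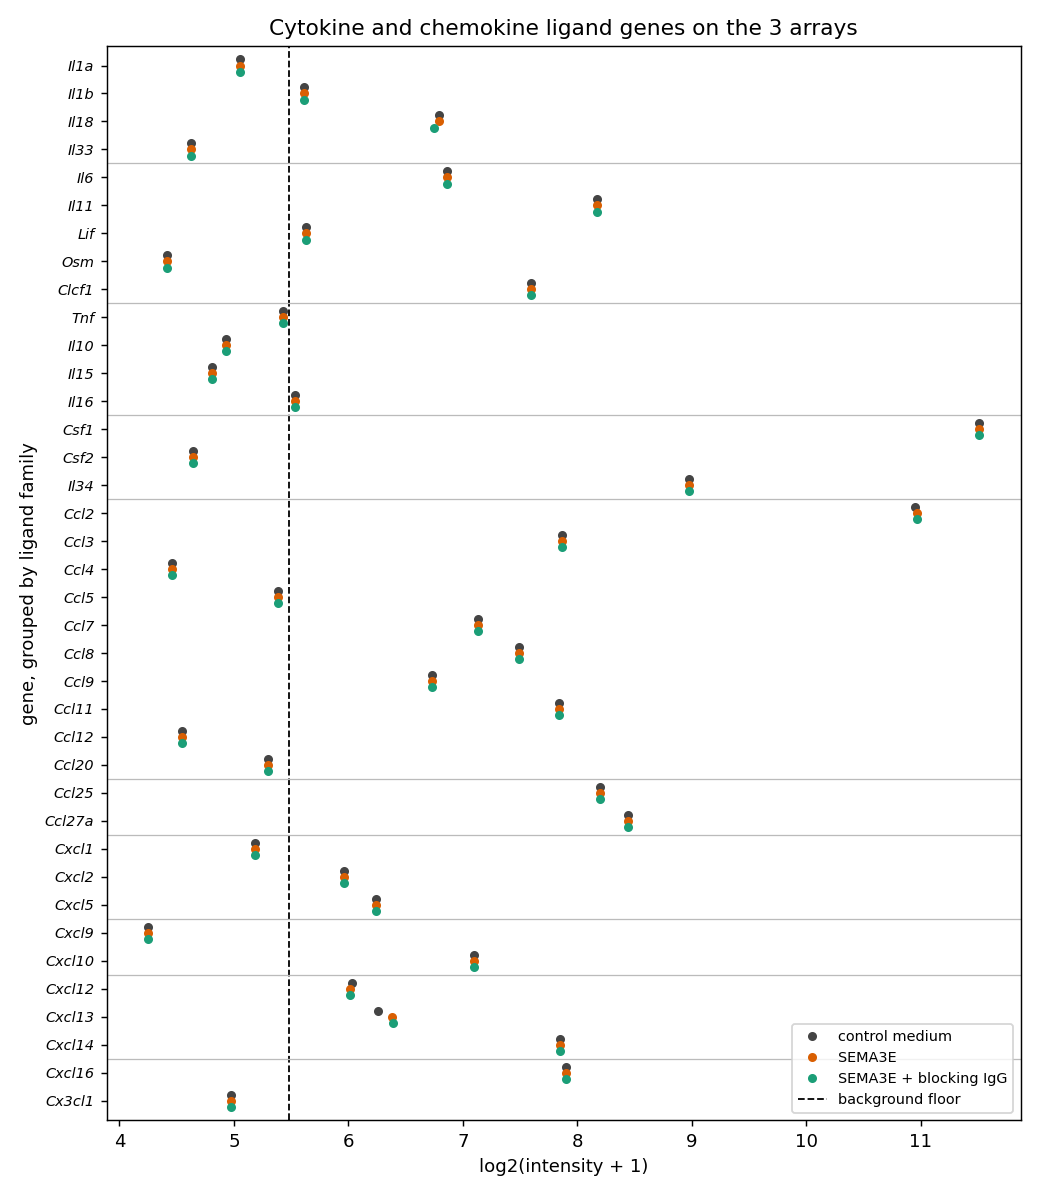
Level of each of the 38 ligand genes as log2(intensity + 1) on the x axis, with genes on the y axis grouped by ligand family between grey lines and 1 point for each of the 3 arrays, shifted vertically so that equal values stay visible. The dashed line is the floor at 5.48; 24 genes lie to its right, and points of a different x position within a gene are seen for Cxcl13 and, barely, for Il18, Ccl2 and Cxcl12.

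Most ligand genes held the same value on all 3 arrays, where values within 0.0005 on the log2 scale count as identical. This was so for 20 of the 24 genes above the floor (83.3%), beside 75.0% of the 17653 genes above the floor, and for all 14 below it. The 4 that differed anywhere were Cxcl13, Il18, Ccl2 and Cxcl12. An identical value does not show equal amounts of RNA. How the deposited values were summarised is not given, and why so many are identical was not tested.

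Cxcl13, which encodes the chemokine that draws B cells through the receptor CXCR5, was the ligand gene furthest apart. Its intensity was 75.8 units in control medium, 82.2 with SEMA3E and 83.0 with SEMA3E and the blocking IgG. Both cultures with SEMA3E were thus above control and close to each other. On the log2 scale SEMA3E lay 0.12 above control, the IgG culture 0.13 above control and 0.01 above SEMA3E alone.

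Il18, an IL-1 family cytokine released after cleavage by caspase 1, read 110.1 units in control medium and with SEMA3E, and 106.8 with the IgG. Among the media, the one with IgG was lower, by a log2 difference of -0.04 from each of the others. Ccl2, the chemokine that recruits monocytes through CCR2, read 1984 units in control medium and 2000.2 in both cultures with SEMA3E, a log2 difference of 0.01. Cxcl12, the chemokine that acts on CXCR4, went the other way and read 64.6 units in control medium and 63.7 in both cultures with SEMA3E, a log2 difference of -0.02. For Ccl2 and Cxcl12, then, the culture with IgG did not lie nearer to control than the culture with SEMA3E alone in the deposited values. This depended on the scaling, since under loess and quantile normalization the culture with IgG lay slightly nearer for both genes. Under quantile normalization Ccl2 lay 0.017 above control with SEMA3E and 0.009 above it with the IgG. Cxcl12 lay at -0.025 and -0.020 in the same order. For Il18 it was the culture with IgG that stood apart.

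Upstream sequence is shown for the 3 of these 4 genes that the RefSeq promoter table holds, and for Csf1, the ligand gene furthest above the floor. Each line gives the 250 bases before the start furthest upstream, from the reference strain and not from ICR mice, in lower case with matches to the searched motifs in capitals. They come from GRCm38.p6 at chr5:95956689-95956938 (plus strand) for Cxcl13, chr6:117168285-117168534 (plus) for Cxcl12, chr9:50554450-50554699 (plus) for Il18 and chr3:107760470-107760719 (minus) for Csf1, written 5′ to 3′ along the gene.
Cxcl13: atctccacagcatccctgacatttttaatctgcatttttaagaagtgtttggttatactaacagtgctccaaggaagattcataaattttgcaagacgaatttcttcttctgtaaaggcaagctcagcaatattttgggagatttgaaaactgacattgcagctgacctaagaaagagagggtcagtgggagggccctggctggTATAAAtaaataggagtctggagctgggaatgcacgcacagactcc
Cxcl12: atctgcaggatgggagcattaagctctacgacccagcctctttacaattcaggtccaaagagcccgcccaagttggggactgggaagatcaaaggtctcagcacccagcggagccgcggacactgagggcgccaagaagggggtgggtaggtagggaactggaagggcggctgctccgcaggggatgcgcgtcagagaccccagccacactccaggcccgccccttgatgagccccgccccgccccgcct
Il18: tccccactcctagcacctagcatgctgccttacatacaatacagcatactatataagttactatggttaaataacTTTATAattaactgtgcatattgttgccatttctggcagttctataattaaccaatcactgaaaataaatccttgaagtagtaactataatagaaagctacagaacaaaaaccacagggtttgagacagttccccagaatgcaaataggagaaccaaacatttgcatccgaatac
Csf1: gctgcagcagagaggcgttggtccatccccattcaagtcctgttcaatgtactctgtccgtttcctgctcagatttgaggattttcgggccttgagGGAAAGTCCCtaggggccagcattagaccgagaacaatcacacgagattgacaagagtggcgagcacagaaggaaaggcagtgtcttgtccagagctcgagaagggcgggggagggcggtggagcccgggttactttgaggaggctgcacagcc

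The motifs, read on both strands, were the kappaB consensus of NF-kappaB, TGANTCA for AP-1, TTCNNNGAA for STAT factors and TATAAA for the TATA box. In the stretches above, the capitals of Cxcl13 mark a TATAAA that begins 46 bases before the start, those of Il18 a TATAAA on the opposite strand, 175 to 170 bases before it, and those of Csf1 a kappaB match 154 to 145 bases before it. Cxcl12 had none of the motifs in this window. Each match stands in a different gene, so none could overlap another. Cxcl12 upstream sequence was 64.4% G or C, that of Csf1 56.4%, of Cxcl13 42.0% and of Il18 35.6%.

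Of the 38 ligand genes 26 have an entry in that table. A kappaB match stood in 8 of the 26 (30.8%), namely Il6, Lif, Csf1, Ccl9, Ccl20, Cxcl1, Cxcl2 and Cxcl10, beside 7.03% of 27025 genes. An AP-1 match stood in 6 (23.1%, beside 6.85% of all), a TATAAA in 11 (42.3%, beside 13.0%) and a STAT match in 1, Cxcl14 (3.85%, beside 7.14%). Among the 8 with a kappaB match, 6 lay above the floor and 2 below it, beside 17 above and 9 below among all 26. For AP-1 the split was 5 above and 1 below, for TATAAA 5 above and 6 below. A match is a run of letters and not evidence of binding.

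The first comparison set the SEMA3E culture against control. With 1 culture and 1 array per medium, a difference due to the medium cannot be told from one between cultures or arrays, here and below. Of the 24 ligand genes above the floor, Cxcl13 and Ccl2 were higher with SEMA3E, Cxcl12 was lower and 21 were identical. That is 12.5% differing at all, beside 18.5% of the 17653 genes above the floor (6.19% higher, 12.3% lower). Cxcl13 alone was at least 0.1 apart on the log2 scale (4.17%, beside 5.72% of all genes), and 0 ligand genes were 1.5-fold apart, beside 0.17% of all genes. The median difference was 0 over the ligand genes and 0 over all genes.

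The second comparison set the culture with IgG against the one with SEMA3E alone. No culture received the IgG without SEMA3E. Cxcl13 was higher, Il18 was lower and 22 of 24 ligand genes were identical. The 8.33% that differed stand beside 20.4% of all genes above the floor (10.1% higher, 10.3% lower). At 0.1 on the log2 scale 0 ligand genes were apart, beside 6.82% of all genes, and at 1.5-fold 0, beside 0.136%.

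The last comparison set the culture with IgG against control. Cxcl13 and Ccl2 were higher, Cxcl12 and Il18 were lower, and 20 of 24 were identical. The share that differed was 16.7%, beside 18.9% of all genes above the floor (7.54% higher, 11.4% lower). Cxcl13 was again the one gene at least 0.1 apart (4.17%, beside 6.59%), and 0 ligand genes were 1.5-fold apart, beside 0.204% of all genes. The comparisons share arrays: control serves in the first and the last, SEMA3E in the first and the second, and the IgG array in the second and the last.

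**Figure D2:**
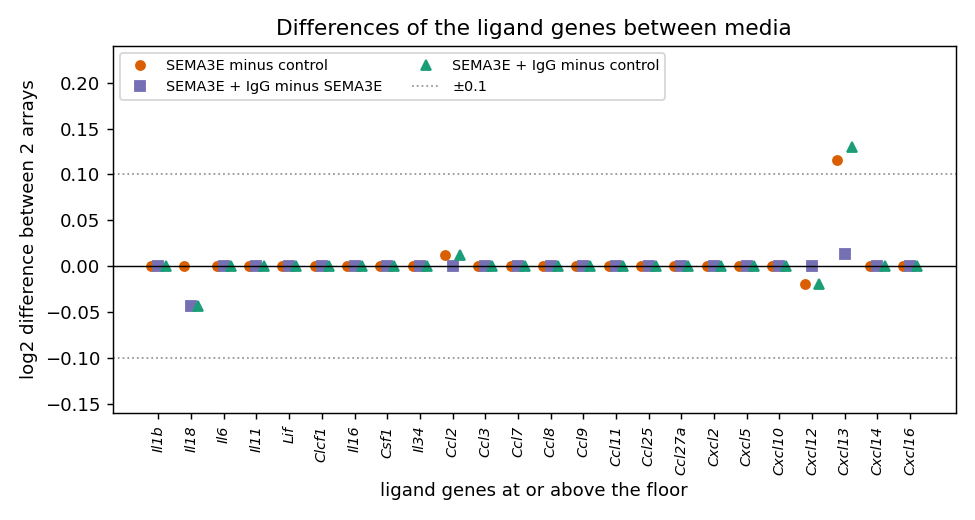
Log2 difference between 2 arrays (y axis) for the 24 ligand genes at or above the floor (x axis), with circles for SEMA3E minus control, squares for SEMA3E with IgG minus SEMA3E, triangles for SEMA3E with IgG minus control, and dotted lines at plus and minus 0.1. The circle and the triangle of Cxcl13, at 0.12 and 0.13, are the only points beyond a dotted line, and 20 genes have all 3 points at 0.

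**Figure D3:**
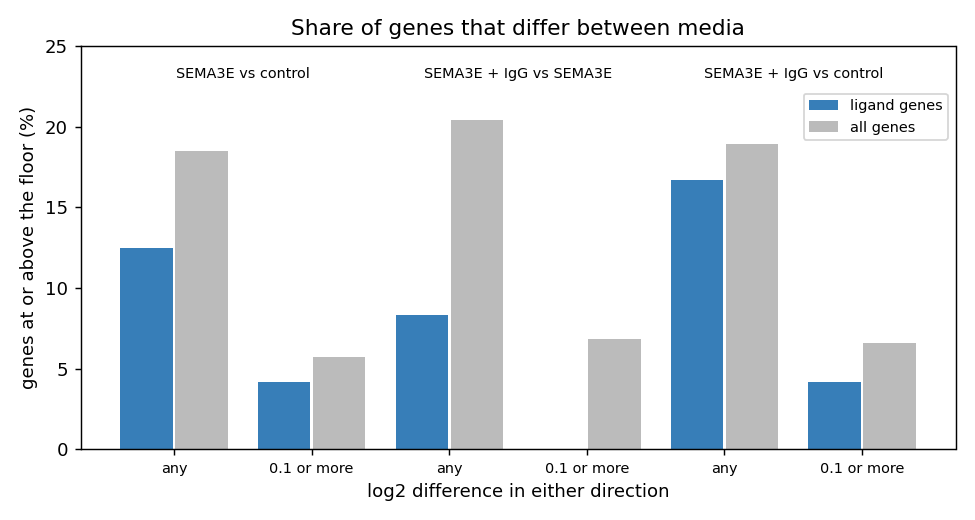
Percent of genes at or above the floor (y axis) that differ in either direction between 2 arrays, by any amount or by at least 0.1 on the log2 scale (x axis), for the 24 ligand genes in blue and all 17653 genes in grey. In each of the 3 comparisons the blue bar is the lower one, at 12.5% against 18.5%, 8.33% against 20.4% and 16.7% against 18.9% for any difference.

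Among the colony-stimulating ligands, Csf1 encodes the macrophage growth factor CSF1, which sensory neurons are known to induce after nerve injury. It read 2916 units on all 3 arrays, a level of 11.51 on the log2 scale and 6.03 units above the floor. Il34, which encodes the other ligand of the CSF1 receptor, read 501 units on all 3. Csf2, the granulocyte and macrophage factor, lay below the floor at 24.0 units. Media with and without SEMA3E therefore gave the same readings for all 3 genes.

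The IL-6 family signals through the shared receptor chain gp130, encoded by Il6st. Il11 read 288 units, Clcf1, a ligand of the CNTF receptor, 192 units, Il6 itself 115 units and Lif, a factor released by Schwann cells after injury, 48.6 units, each the same on all 3 arrays. Osm, for oncostatin M, was below the floor at 20.3 units. So 4 of the 5 family members lay above the floor, Lif by 0.15 on the log2 scale.

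Of the IL-1 family, Il18 and Il1b lay above the floor, and Il1a and Il33 below it. Il1b, an inflammatory cytokine that nociceptors respond to, read 48.0 units on all 3 arrays, 0.13 on the log2 scale above the floor. Il1a read 32.1 and Il33, an alarm signal of barrier and glial cells, 23.6 units. Tnf, the main inflammatory cytokine of macrophages, read 42.0 units on all 3 arrays, just under the floor, and below it were the anti-inflammatory Il10 at 29.5 and Il15 at 27.0. Il16, a ligand of CD4, was at 45.3 units.

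Inflammatory CC chemokines had 6 of 10 genes above the floor. After Ccl2, which stood 5.48 log2 units above it, the eosinophil attractant Ccl11 read 228 units, Ccl3, a ligand of CCR1, 232, Ccl8 179, Ccl7, another ligand of CCR2, 139, and Ccl9 105. Ccl5, Ccl20, Ccl12 and Ccl4 read 40.7, 38.4, 22.4 and 21.0 units, all under the floor. All but Ccl2 were the same on the 3 arrays. Ccl25 and Ccl27a, chemokines best known from thymus and gut and from skin, read 294 and 347 units on each array.

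Neighbouring ligand genes lay on both sides of the floor. Ccl2, Ccl7, Ccl11, Ccl12 and Ccl8 follow each other on chromosome 11 with no other protein-coding gene between them in the RefSeq table, and 4 of the 5 lay above the floor while Ccl12 did not. Likewise 1 of each neighbouring pair lay above it for Lif and Osm, Ccl9 and Ccl5, and Ccl3 and Ccl4 on chromosome 11, Il1b and Il1a on chromosome 2, and Cxcl2 and Cxcl1 on chromosome 5. Of all 38 ligand genes 63.2% lay above the floor. Most of these pairs depend on where the floor is set. With the floor at percentile 99, Lif, Il1b and Cxcl2 fall below it too, and at percentile 90 Ccl5 lies above it. Several of these neighbours are close relatives in sequence, whose probes may read more than 1 gene.

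Of the CXC chemokines that draw neutrophils through CXCR2, Cxcl5 read 74.8 and Cxcl2 61.5 units, and Cxcl1 lay below the floor at 35.4. Cxcl10, an interferon-induced ligand of CXCR3, read 136 units, and Cxcl9, which interferon gamma induces, read 18.1. Cxcl14 read 229 units. Of the chemokines that are made as membrane proteins and shed, Cxcl16 read 238 units, while Cx3cl1, fractalkine, which neurons are known to present to macrophages and microglia, was below the floor at 30.5. Each of these 8 genes read the same on all 3 arrays.

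Receptors of the ligands were then placed against the same floor. Cytokine receptor genes lay above it in 11 of 19 cases measured, chemokine receptor genes in 4 of 19, beside 58.6% of all genes. Among ligand genes it was 9 of 16 for cytokines and 15 of 22 for chemokines. The 4 chemokine receptor genes were Ccr7, Ccr10, Cx3cr1 and Ackr1, an atypical receptor that binds many inflammatory chemokines without G protein signalling. In 37 pairs of a ligand and a receptor known to bind it, taken from general knowledge, the receptor was analysed here in 33. In 17 of these 33 the ligand lay above the floor and the receptor below it, in 5 both lay above, in 5 the receptor alone did and in 6 neither did.

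The 5 pairs above the floor on both sides were Il1b with Il1r1, Il6 with Il6ra, Lif with Lifr, Clcf1 with Cntfr and Ccl27a with Ccr10. Receptor genes of the gp130 family that were measured all lay above it: Il6st at 14.24 on the log2 scale, Lifr at 12.06, the oncostatin receptor gene Osmr at 10.34, Cntfr at 8.70 and Il6ra at 6.24. Osmr thus had a clear signal while its ligand gene Osm, at 4.42, did not, and Tnfrsf1a, the main TNF receptor gene, lay at 7.15 with Tnf under the floor. Csf1r, the receptor gene for Csf1 and Il34, was below the floor at 4.97 on all 3 arrays, as were Ccr2 (4.62), Cxcr4 (5.19), Cxcr5 (4.20) and Il18r1 (4.51), receptor genes for Ccl2, Cxcl12, Cxcl13 and Il18. For all 4 ligand genes that differed between media, the paired receptor gene was therefore below the floor. This was the common case, since with the ligand above the floor the receptor was below it in 17 pairs and above it in 5. Each ligand was paired with 1 receptor, and Ackr1, at 12.06, was in none of the pairs.

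**Figure D4:**
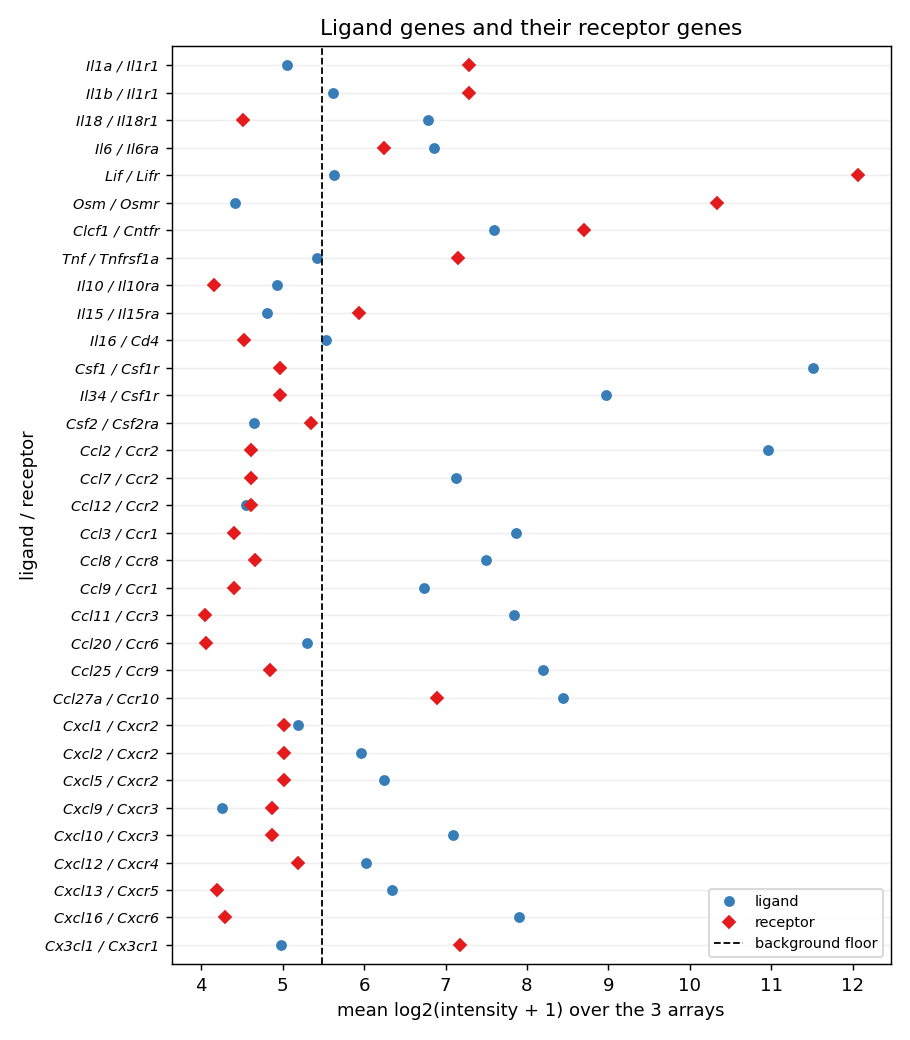
Mean log2(intensity + 1) over the 3 arrays (x axis) of the ligand gene (blue circle) and a receptor gene (red diamond) in each of the 33 pairs with both measured (y axis, ligand first), with the floor at 5.48 as a dashed line. Both symbols lie right of the line in 5 pairs, the circle alone in 17 and the diamond alone in 5; each symbol is to be read against the line, not against the other symbol.

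Receptor genes above the floor differed between media by at most 0.14 on the log2 scale. Of the 11 cytokine receptor genes above the floor, 3 were lower with SEMA3E than in control and 0 higher, beside 12.3% lower and 6.19% higher of all genes. The 3 were Lifr (-0.08), Il6st (-0.03) and Cntfr (-0.03), as log2 differences. With the IgG against SEMA3E alone Lifr (0.08) and Il6st (0.04) were higher, beside 10.1% of all genes. Ackr1 read 4550.1 units in control medium, 4137 with SEMA3E and 4175 with the IgG, log2 differences from control of -0.14 and -0.12. Cx3cr1, the fractalkine receptor of macrophages, was 0.04 higher with SEMA3E than in the other cultures. The remaining chemokine receptor genes above the floor, Ccr7 and Ccr10, were identical on all 3 arrays.

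Counts for the pathway genes around the ligands stand beside all genes above the floor, of which 75.0% were identical on all 3 arrays. Between SEMA3E and control 6.19% of all genes were higher and 12.3% lower. Of 13 genes for ligand antagonists and processing enzymes 8 lay above the floor, and 2 of these, Casp1 (0.02) and the inflammasome adaptor gene Pycard (0.05), were higher with SEMA3E than in control, with 0 lower. Of 15 NF-kappaB pathway genes above the floor, 15 were identical between SEMA3E and control. Tnfaip3, which encodes a brake on the pathway, was 0.098 higher with the IgG than in either other culture, at a mean of 5.71, near the floor. Of 10 JAK-STAT genes above it, Stat2, a partner in interferon signalling, was 0.12 lower in both cultures with SEMA3E than in control, and the other 9 were identical on all 3 arrays. Socs3, a feedback inhibitor that gp130 ligands induce, lay below the floor at 4.20.

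Of 48 further cytokine and chemokine ligand genes outside the 38, 18 lay above the floor, beside 58.6% of all genes. Among these 18, 14 were identical on all 3 arrays, beside 75.0% of all genes above the floor. Ccl19, a ligand of CCR7, read 883 units in control medium and 767 in both cultures with SEMA3E, a log2 difference of -0.20 for each. Pf4, a platelet and macrophage chemokine, read 236 units in control medium and with the IgG, and 269 with SEMA3E alone, a log2 difference of 0.18. Xcl1, near the floor at 5.52, likewise held its control reading with the IgG and lay 0.01 below it with SEMA3E alone. Il27, a cytokine of antigen-presenting cells, had the same reading in control medium and with SEMA3E alone, 50.2 units, and read 48.2 with the IgG, a log2 difference of -0.06. Ccl19 belongs to a group of near-identical gene copies in the mouse, so its probes may read more than 1 of them.

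Markers of other cells, and of the neurons themselves, also differed between the arrays. The summed intensity of the 16 macrophage markers was 4569 units in control medium, 4826 with SEMA3E and 4739.5 with the IgG, of which Lyz2, the lysozyme gene, gave 2171, 2479.9 and 2348 units. Without Lyz2, a gene set aside after its values were seen, the sums were 2398, 2346 and 2392 units, so both cultures with SEMA3E then lay below control. Of the 8 macrophage markers above the floor, 2 were higher with SEMA3E than in control (Lyz2 0.19, Cx3cr1 0.04) and 1 was lower (Cd68 -0.08), while with the IgG against control 1 was higher (Lyz2 0.11) and 2 were lower (Adgre1 and C1qa, each -0.04). The median difference of the 8 was 0 in both comparisons with control. The defining markers Csf1r, Ptprc, Mrc1 and Cd163 lay below the floor on every array, as did Itgam, Fcgr1, C1qb and C1qc.

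The 7 neutrophil markers summed to 662 units in control medium, 783 with SEMA3E and 723 with the IgG. S100a8 gave 292, 388 and 364 of these units and S100a9, which encodes its partner protein, 221, 246 and 210.5, so that S100a9 lay above control with SEMA3E alone and below it with the IgG. Without S100a8 the sums were 369.7, 394.6 and 359.3 units in the same order. Ly6g, Csf3r, Mpo and Elane lay below the floor.

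Of the 10 sensory neuron markers 6 were lower and 0 higher than in control in each culture with SEMA3E. Beside these and the macrophage counts, 12.3% of all genes above the floor were lower and 6.19% higher with SEMA3E alone. With the IgG 11.4% were lower and 7.54% higher. The median log2 differences of the 10 neuron markers were -0.03 for SEMA3E alone and -0.02 with the IgG, and Tubb3 was lowest at -0.16 in both. Larger differences from control were seen for Ogn, a fibroblast marker (-0.57 with SEMA3E and -0.83 with the IgG), and Kcnj10, a potassium channel gene of satellite glia (-0.24 and -0.54). Of the 5 other fibroblast markers above the floor, 1 was lower and 4 were identical in each of these comparisons. The other satellite glia markers did not fall with Kcnj10. Fabp7 was 0.13 higher than control with SEMA3E alone and identical to it with the IgG, and Apoe and Cdh19 were identical on all 3 arrays. The part of any of these cells in the readings of Cxcl13 and the other ligand genes was not tested.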

How the data were processed

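RNA of 3 cultures, 1 array each, was labelled with the GeneChip WT Pico kit, per the labels' protocols. The authors deposited probe set intensities on a linear scale, made with Affymetrix Expression Console according to the submitters' processing notes. How probes were summarised and normalized, with which version and for which genome build, is not given in the sources used here.

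Each value was turned into log2(intensity + 1). Of 65956 probe sets 30604 carry 1 symbol in the platform annotation, 2146 several and 33206 none; 827 symbols were updated through gene numbers with a RefSeq table (GRCm38.p6), used for names and neighbours. The brightest probe set per gene was kept. Gene differences were counted at any size, at 0.1 on the log2 scale and at 1.5-fold, over genes whose mean reached the floor, and the counting was tested on simulated data. No test between media was possible with 1 array each. Every ligand gene could be named; of other lists, genes at least 0.1 apart, the receptors of named ligands, and markers; other genes with smaller differences were named after their values were seen. The members and lists were chosen with earlier results of these data known. Scaling, offset and floor were varied, and so was probe set choice, which cannot alter a ligand gene's difference. Upstream sequences are from RefSeq. Tools were Python 3.11.15, pandas 2.3.3, numpy 2.4.6 and statsmodels 0.14.6.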

Additional observations from a re-analysis of the deposited data

Results flagged for a closer look

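Probe sets that the annotation gives to several genes were left out of the comparisons. Of these, 5 name Ccl27a, a chemokine of skin, together with other genes. The probe set shared by Ccl27a and the predicted gene Gm12394 stood out because its reading with SEMA3E and the blocking IgG lay above that in control medium. It read 92.8 units in control medium and with SEMA3E alone and 131 units with the IgG, a log2 difference of 0.49. The probe set of Ccl27a alone held 347 units on all 3 arrays. The remaining 4 shared probe sets, which also name Ccl27b and other copies, were identical on all 3 arrays in 3 cases and lower with the IgG by a log2 difference of -0.04 in the other. Which of the named genes gives the reading was not tested.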

How the results depend on the processing

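With 16 in place of 1 added before the logarithm, Cxcl13 lay 0.098 above control with SEMA3E, so that 0 ligand genes in place of 1 were at least 0.1 apart in that comparison; with the IgG it remained past 0.1, at 0.11. The other counts of ligand genes at least 0.1 or 1.5-fold apart, each 0 or 1, did not change under centring, loess, quantile normalization or the offset of 16. The mean of all probe sets of a gene could not alter a ligand gene's difference, since each ligand gene has 1 probe set. The 4 genes that differ kept their direction under the 3 scalings. The largest move of a ligand gene's difference was 0.02 on the log2 scale, under quantile normalization and under the offset, which is as large as the differences of Ccl2 and Cxcl12 themselves. Loess was fitted without robustness weights, a choice made after seeing the data, because most differences are 0. The number of ligand genes above the floor was 27 with the floor at percentile 90, which adds Tnf, Ccl5 and Ccl20, and 19 at percentile 99, which removes Il1b, Lif, Il16, Cxcl2 and Cxcl12. With olfactory receptor genes as the floor it was 23, without Il16. It stayed at 24 with vomeronasal pseudogenes left out, a choice made after seeing the data, and with the floor required on all 3 arrays. No paired analysis was possible because each medium has 1 array. Signal over background limits the 7 genes less than 1 log2 unit above the floor, Cxcl13 and Cxcl12 among them.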

Other observations

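Many ligand genes shared their exact reading with unrelated genes. In control medium 24 of the 38 had an intensity, to 6 decimals, that at least 1 other gene also had, beside 49.7% of all genes above the floor and 86.8% of those below it. This held for 11 of the 24 ligand genes above the floor (45.8%) and 13 of the 14 below it (92.9%). Cxcl5 shared its reading with 64 other genes, the IL-6 receptor gene Il6ra among them, and Lif shared its own with 13, among them Bcl3. Below the floor, Cxcl1 shared its reading with 23 genes, Cxcr4 included, and Ccl4 with 143. Csf1, Ccl2, Il18, Cxcl12, Cxcl13, Il11, Clcf1, Ccl3, Ccl7, Ccl25, Ccl27a, Cxcl10 and Cxcl14 shared theirs with no other gene, and neither did Ccl5 below the floor.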
